A study of Bos taurus with 28 samples.

Results

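SCD, FASN and ACACA encode 3 enzymes of fatty acid synthesis and were followed in muscle biopsies of steers, which are castrated male cattle. They were picked by identifier: ENSBTAG00000045728 (SCD), ENSBTAG00000015980 (FASN) and ENSBTAG00000017567 (ACACA) are 3 of the 24616 Ensembl gene identifiers in the count files. The files hold identifiers without symbols, and 0 of them matched the reference table used here. The names are therefore taken as given with the identifiers, and marker genes of muscle fibres, adipocytes or other cell types were not analysed here.

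ACACA, acetyl-CoA carboxylase alpha, makes malonyl-CoA, the committed step of fatty acid synthesis. FASN, fatty acid synthase, joins malonyl-CoA units into palmitate, and SCD, stearoyl-CoA desaturase, puts a double bond into saturated fatty acids such as stearate to give oleate. In ruminants new fatty acids are made mainly in adipose tissue, and a muscle biopsy can hold adipocytes between its fibres. Insulin and the sterol regulatory element binding proteins are known to raise transcription of these genes.

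The steers were crossbred Aberdeen Angus x Holstein Friesian males, and the samples come from 6 fed as controls and 6 with restricted energy. During the first 99 days control steers had unlimited concentrates and 7 kg of grass silage a day, and restricted steers had unlimited grass silage and 0.5 kg of concentrate a day. All 12 then received a mixed ration of silage and concentrate at 80:20. Each steer was biopsied at day 99 and again at day 131, which was 32 days into this realimentation. The series compares the end of restriction, and the growth that follows it, with control steers on the same days. No label used here gives the age of the steers or names the muscle.

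Summing the technical libraries of 3 samples left 24 samples, 6 in each group of diet and day, with 3342314 to 24376288 counts each. Levels are given as CPM, counts scaled to a common library size, with library sizes adjusted by TMM, a factor that allows for differences in RNA composition between libraries. Transcript lengths were not used here, so a level is compared between samples of 1 gene and never between genes. Over the 24 samples the mean level was 21.7 CPM for SCD, 453 CPM for FASN and 46.6 CPM for ACACA. Technical libraries of 1 sample differed by at most 1.10-fold for SCD, 1.05-fold for FASN and 1.10-fold for ACACA. Steers of 1 group differed more. SCD and FASN had a biological coefficient of variation within groups of 0.70 and 0.62, above 98.6% and 96.1% of the 11288 genes tested, while that of ACACA was 0.41, above 55.4% of them. Control steer 6 at day 99 stood apart in the 3 genes, so the main results that rest on it are also given without it, an alternative chosen after the data were seen. The coefficients of variation above include that steer and were not computed without it. Leaving it out took the SD of log2 CPM in control steers at day 99 from 1.33 to 0.45 for SCD. For FASN this SD went from 1.51 to 0.50, and for ACACA from 1.00 to 0.41.

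At the end of restriction SCD was lower in restricted steers, and with TMM scaling every restricted steer lay below every control steer. It stood between 14.4 and 172.7 CPM in control steers (median 23.0; mean 46.0 ± 62.3, SD, n = 6) and between 3.36 and 13.7 CPM in restricted steers (median 7.48; mean 7.97 ± 4.39, SD, n = 6). Among all genes tested, 0.266% separated the diets fully in this direction. The gap between the groups was narrow, and it closed on library totals without TMM scaling. Control steers 1 and 2 then held 12.6 and 14.4 CPM of SCD, and restricted steers 2 and 5 held 14.4 and 14.0 CPM, so the groups overlapped (difference in mean log2 CPM -2.12, exact permutation p = 0.0108). The lowest control values, 14.4 CPM in steers 1 and 2, have counting intervals (95%, exact Poisson) that reach down to 12.2 and 11.9 CPM, and that of the highest restricted value, in steer 2, reaches up to 15.2 CPM. These intervals cover counting error only. With TMM scaling the difference in mean log2 CPM of SCD, restricted minus control, was -2.01 (two-sided exact permutation p = 0.00216, the smallest that 6 against 6 samples can give).

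FASN ranged from 189.5 to 3134 CPM in control steers at day 99 (median 299.6; mean 758.1 ± 1167, SD, n = 6) and from 85.7 to 360.6 CPM in restricted steers (median 169.4; mean 201.1 ± 106.0, SD, n = 6). The groups overlapped, with restricted steers 1, 4 and 6 inside the control range. ACACA ranged from 28.8 to 215.5 CPM in control steers (median 49.0; mean 73.8 ± 70.2, SD, n = 6) and from 21.6 to 53.4 CPM in restricted steers (median 31.4; mean 33.2 ± 11.0, SD, n = 6), and overlapped as well. The difference in mean log2 CPM was -1.18 for FASN (exact permutation p = 0.0844) and -0.85 for ACACA (exact permutation p = 0.0498). On totals without TMM scaling ACACA did not overlap, at 47.4 to 193.0 CPM in control and 27.98 to 43.1 CPM in restricted steers, a separation in this direction that 0.47% of all genes had. The unscaled differences were -1.30 for FASN (exact permutation p = 0.0152) and -0.97 for ACACA (exact permutation p = 0.00216). Which of the 3 genes separated the diets thus depended on the scaling. On each scale 18 exact tests of the 3 genes were computed, and these p-values are not adjusted.

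**Figure D1:**
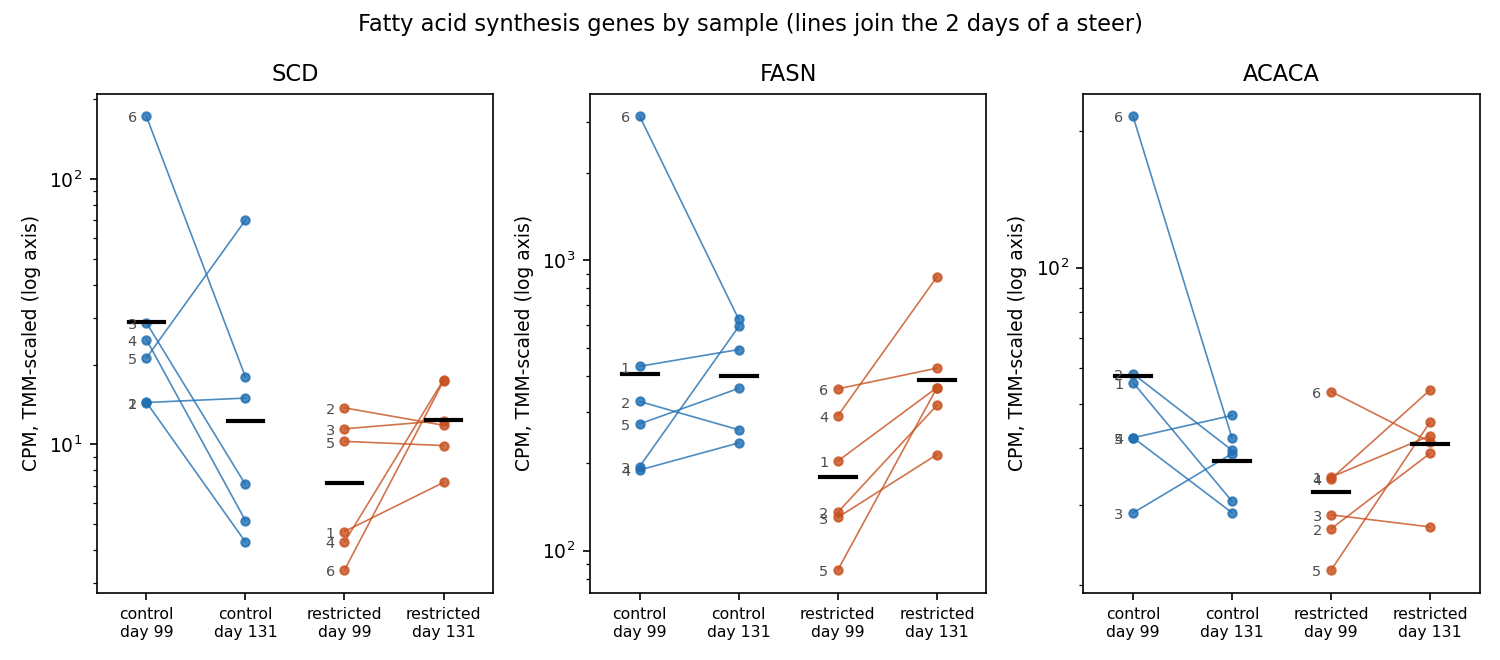
CPM of SCD, FASN and ACACA (log axes) in each of the 24 samples, in blue for control and orange for restricted steers, with a line joining day 99 and day 131 of a steer, the number of the steer beside its day 99 point, and a black bar at the mean of log2 CPM of each group. Control steer 6 stands above all other samples of day 99 in each panel, and FASN is higher at day 131 in 6 of 6 restricted steers.

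Across all genes the edgeR fit, which compares group means of the counts, called 0 of the 3 between the diets at day 99. It called 0% of all 11288 genes, with 4.31% at an unadjusted p under 0.05, while DESeq2 called 20 genes and limma voom 1. The log2 fold change was -2.49 for SCD (SE 0.63, 95% interval -3.78 to -1.19, edgeR adjusted p = 0.279). It was -1.91 for FASN (SE 0.55, edgeR adjusted p = 0.542) and -1.14 for ACACA (SE 0.35, edgeR adjusted p = 0.580). Before adjustment all 3 passed 0.05 with a lower value, as did 2.84% of all genes. DESeq2 called SCD (adjusted p = 0.0198) and neither of the others. Limma voom called 0 of the 3, with all 3 under 0.05 before adjustment, and the share of all genes under 0.05 in that fit was not computed. A lower level in bulk RNA can come from fewer cells that express the gene or from less of its RNA per cell, and these cannot be told apart here.

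Control steer 6 at day 99, the sample with the lowest total (3342314 counts), held 172.7 CPM of SCD, 3134 CPM of FASN and 215.5 CPM of ACACA. These levels were 6.00, 7.27 and 3.69 times those of the next highest control sample of that day, which was steer 3 for SCD, steer 1 for FASN and steer 2 for ACACA. They rest on 517, 9382 and 645 counts, and the lower counting limits of 158.1, 3071 and 199.1 CPM lie far above all other samples of that day. Of 11102 genes with a mean of at least 1 CPM, 42 (0.378%) were more than 3-fold above the highest of the other 5 control samples, and the 3 synthesis genes were among them. At day 131 the same steer held 18.0 CPM of SCD, 625.7 CPM of FASN and 42.1 CPM of ACACA. SCD and ACACA were then inside the range of the other control steers, and FASN was the highest of the 6.

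Without control steer 6 the differences at day 99 kept their direction and were smaller. The other 5 control steers held 14.4 to 28.8 CPM of SCD (mean 20.7 ± 6.36, SD, n = 5), above all restricted steers with TMM scaling but not without it. The log2 fold change of SCD was then -1.34 (SE 0.54, edgeR adjusted p = 0.999), and its exact permutation p was 0.00649 (0.0303 unscaled). FASN differed by -0.50 (SE 0.37, 95% interval -1.25 to 0.26) and ACACA by -0.45 (SE 0.24, 95% interval -0.95 to 0.05), with an edgeR adjusted p of 0.999 for both. Both intervals hold 0. On unscaled totals without that steer the difference in mean log2 CPM of ACACA was -0.64 (exact permutation p = 0.00433). That of FASN was -0.77 (exact permutation p = 0.0325). Since control steer 6 was the highest control sample in each gene, leaving it out could not make separated groups overlap.

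The file names carry 4 run dates, numbered here as runs 1 to 4. Within them the difference in mean log2 CPM between the diets at day 99 was negative for each gene in each run. That of SCD was -0.07, -1.42, -1.09 and -5.43 in runs 1 to 4. That of FASN was -1.67, -0.91, -0.83 and -3.27, and that of ACACA -1.06, -0.86, -0.29 and -2.33. Run 4, where each gap was widest, held control steer 6 as its only control sample of that day. Run 1 held 1 steer per diet, and these differed little in SCD. No run held more than 2 steers of a diet at that day. With TMM scaling every restricted steer lay below every control steer in SCD, so the sign of its difference within runs was fixed in advance. The share of all genes with a negative difference in each run was not computed.

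After 32 days on the mixed ration FASN was higher in every restricted steer. It went from 85.7 to 360.6 CPM at day 99 (median 169.4) to 214.1 to 875.7 CPM at day 131 (median 363.8; mean 426.4 ± 231.0, SD, n = 6). The ratio of day 131 to day 99 was 1.79, 2.33, 1.65, 3.01, 4.24 and 1.18 in steers 1 to 6, with a median of 2.06. Of all genes tested, 7.1% had a higher value at day 131 in each of these 6 animals. The mean log2 CPM of FASN was higher by 1.11 (exact sign-flip test over the 6 steers, p = 0.03125, the smallest it can give; exact permutation p = 0.0195 with the pairing ignored). The edgeR log2 fold change was 1.09 (SE 0.54, 95% interval -0.02 to 2.19, edgeR adjusted p = 0.273), so FASN was not called across all genes. With the steer as a block it was 1.11 (SE 0.36, edgeR adjusted p = 0.161), and without control steer 6 it was 1.13 (SE 0.36, edgeR adjusted p = 0.144).

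SCD and ACACA were less even over the restricted steers. SCD was 7.19 to 17.5 CPM at day 131 (median 12.1; mean 12.7 ± 4.11, SD, n = 6), higher than at day 99 in 4 of 6 steers. The ratio of day 131 to day 99 was 5.17 in steer 6 and 4.09 in steer 4, and lay between 0.86 and 1.53 in the other 4. Steers 6 and 4 had held the least SCD of the group at day 99, at 3.36 and 4.28 CPM, and stood highest at day 131, at 17.4 and 17.5 CPM. ACACA was 26.9 to 53.8 CPM at day 131 (median 42.0; mean 41.6 ± 8.86, SD, n = 6), higher in 4 of 6 steers and lower in steers 3 and 6. The edgeR log2 fold change was 0.64 for SCD (SE 0.62, 95% interval -0.61 to 1.90, edgeR adjusted p = 0.524). It was 0.33 for ACACA (SE 0.34, 95% interval -0.38 to 1.03, edgeR adjusted p = 0.562). None of the 3 genes was among the 0.381% of genes that edgeR called between the days.

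Within runs 2, 3 and 4 the day difference in mean log2 CPM of the restricted steers was positive for each gene. It was 0.98, 2.23 and 0.17 for FASN, 0.77, 0.60 and 1.11 for SCD, and 0.24, 0.72 and 0.05 for ACACA. Run 1 had no restricted sample at day 131.

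In control steers, which went from the concentrate diet to the mixed ration over the same days, the 3 genes differed in how many steers were higher. SCD was lower at day 131 in 4 of 6 steers, at 0.10 to 0.30 times its day 99 level in steers 1, 3, 4 and 6. Steer 2 was at 1.04 times, and steer 5 at 3.31 times its day 99 level, with 70.0 CPM, the highest SCD level of day 131. That sample had a TMM factor of 1.59, the highest of its day, and the part of library composition in its SCD level was not tested. FASN was higher at day 131 in 4 of 6 control steers and ACACA in 2 of 6.

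The edgeR log2 fold change between the days in control steers was -1.17 for SCD (SE 0.61, edgeR adjusted p = 0.722). It was -0.82 for FASN (SE 0.54, edgeR adjusted p = 0.722) and -0.95 for ACACA (SE 0.35, edgeR adjusted p = 0.722). Before adjustment 1 of the 3, ACACA, passed 0.05 with a lower value, as did 2.01% of all genes. Of all genes edgeR called 0%, with 3.89% at an unadjusted p under 0.05, and DESeq2 and limma voom called 0.

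These control values moved with single samples and with the fit used. Without control steer 6 the log2 fold change was 0.04 for SCD, 0.52 for FASN and -0.24 for ACACA (edgeR adjusted p = 0.969, 0.633 and 0.673). With the steer as a block and without control steer 6, FASN stood at 0.48 and SCD at -0.83 (SE 0.57, edgeR adjusted p = 0.603), and the plain difference in mean log2 CPM of SCD was -0.83. The direction of FASN thus turned in both fits. That of SCD turned only in the fit without the block, and not in the plain difference. With the same 5 steers on both days, that difference is also the mean change within steers. The mean level of SCD in these steers was 20.7 CPM at day 99 and 20.3 CPM at day 131, with 70.0 CPM in control steer 5 at day 131. The fit without the block compares group means of the counts, and the plain difference compares means of log2 CPM. Without the day 131 sample of control steer 5 the log2 fold change of SCD was -2.15 (SE 0.56, edgeR adjusted p = 0.131). With all steers and the block FASN stood at 0.02 (SE 0.37). Within runs 1 to 4 the FASN difference was -0.73, 1.25, 1.27 and -3.43, and run 4 held control steer 6 as its day 99 sample. That of SCD was 0.05, -1.39, -1.46 and -3.15, and that of ACACA -0.49, -0.35, 0.04 and -2.54.

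At day 131, with both diets on 1 ration, the diet groups overlapped in the 3 genes. SCD was 4.29 to 70.0 CPM in control steers (median 11.0; mean 19.9 ± 25.2, SD, n = 6) and 7.19 to 17.5 CPM in restricted steers (median 12.1). FASN was 234.8 to 625.7 CPM in control steers (median 427.2; mean 427.8 ± 167.1, SD, n = 6) against 214.1 to 875.7 CPM (median 363.8). ACACA was 28.9 to 47.3 CPM in control steers (median 39.3; mean 37.9 ± 7.00, SD, n = 6) against 26.9 to 53.8 CPM (median 42.0). The 95% interval of the FASN log2 fold change, restricted over control, ran from -1.10 to 1.09. The log2 fold change of ACACA was 0.13 (95% interval -0.57 to 0.84) and that of SCD -0.67 (95% interval -1.92 to 0.57).

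For each of the 3 the edgeR adjusted p at day 131 was 1.00. Of all genes edgeR called 0%, with 1.74% at an unadjusted p under 0.05, while DESeq2 called 3 and limma voom 0. The SCD value rested on control steer 5. Without that sample its log2 fold change was 0.31, and over all samples the difference in mean log2 CPM was 0.01 (exact permutation p = 0.996, n = 6 each). Within runs 2, 3 and 4 the diet difference was 0.75, 0.96 and -1.17 for SCD, with control steer 5 in run 4. It was -1.18, 0.14 and 0.32 for FASN and -0.26, 0.39 and 0.26 for ACACA.

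The diet by day interaction tests whether the change over time differed between the diets. It was 1.81 for SCD (SE 0.86, 95% interval 0.05 to 3.58), 1.91 for FASN (SE 0.76, 95% interval 0.35 to 3.47) and 1.28 for ACACA (SE 0.49, 95% interval 0.28 to 2.27). All 3 passed 0.05 before adjustment with a positive value, as did 1.82% of all genes, and the edgeR adjusted p was 1.00 for each. Of all genes edgeR called 0%, with 2.51% at an unadjusted p under 0.05, while DESeq2 called 2 and limma voom 0. With all steers and the steer as a block the value was 2.09 for SCD (95% interval 0.53 to 3.64). For FASN it was 1.09 (0.009 to 2.18) and for ACACA 0.96 (0.06 to 1.86), with an edgeR adjusted p of 0.9997 for each. Without control steer 6 the values were 0.60, 0.61 and 0.60, and the 3 intervals held 0. With the steer as a block and without control steer 6 they were 1.62 for SCD (95% interval 0.03 to 3.20), 0.65 for FASN (-0.24 to 1.54) and 0.60 for ACACA (-0.19 to 1.39), with an edgeR adjusted p of 1.00 for each. The higher FASN of restricted steers at day 131 is therefore not shown to differ from the change in control steers.

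**Figure D2:**
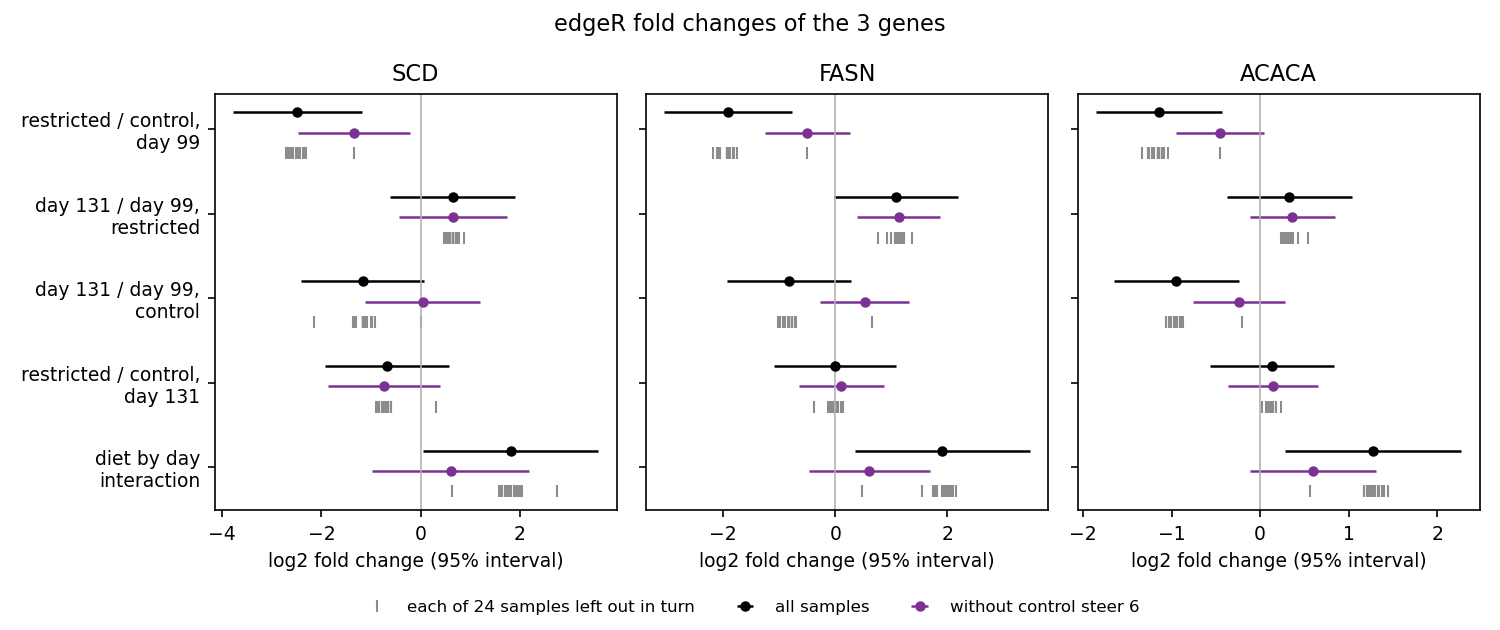
Log2 fold changes of the 3 genes from edgeR (x axis) for the 5 comparisons (y axis): black points with 95% intervals for all 24 samples, purple points with intervals without control steer 6, and grey ticks for the fits that leave out 1 sample each. At day 99 the tick nearest 0 is the fit without control steer 6, and the FASN change in restricted steers is 1.09 with and 1.13 without that animal.

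Within groups, ACACA and FASN varied together from steer to steer at day 99. For each day the log2 CPM of a steer was taken as its deviation from the group mean, over the 12 steers, and 15 such relations were computed, with permutation p-values adjusted over the 15. FASN and ACACA correlated at day 99 with Pearson r = 0.967 (permutation p = 9e-05, adjusted 0.00135) and Spearman rho = 0.937 (permutation p = 0.00022, adjusted 0.0033). Without the 2 steers farthest out in FASN, control steer 6 and restricted steer 6, r was 0.823. At day 131 r was 0.631 and rho 0.538 (permutation p = 0.0484 and 0.0907, adjusted 0.145 and 0.192). Without the 2 farthest steers that r was 0.295, so it rests on them.

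For SCD and FASN at day 99, r was 0.407 and rho -0.273 (permutation p = 0.230 and 0.395, adjusted 0.324 and 0.539), values of opposite sign. Control steer 6 was high in both. Over the other 11 steers r was -0.892 and rho -0.809 (permutation p = 0.00239 and 0.00598, adjusted 0.00896 and 0.0224). Without the 2 steers farthest out in SCD, control steer 6 and restricted steer 2, r was -0.931. Among restricted steers, 1, 4 and 6 held 203.4, 291.2 and 360.6 CPM of FASN with 4.70, 4.28 and 3.36 CPM of SCD. Restricted steers 2, 3 and 5 held less FASN, 135.5, 130.1 and 85.7 CPM, and more SCD, 13.7, 11.5 and 10.3 CPM. Control steers 1 and 2 likewise had more FASN and less SCD than control steers 3, 4 and 5.

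SCD and ACACA at day 99 gave r = 0.428 over 12 steers (rho = -0.294, permutation p = 0.229 and 0.366, adjusted 0.324 and 0.539). Over the 11 steers r was -0.843 and rho -0.827 (permutation p = 0.00099 and 0.00156, adjusted 0.00495 and 0.0117), and without the 2 farthest steers r was -0.871. At day 131 SCD and FASN gave r = 0.092 (rho = 0.154, permutation p = 0.798 and 0.654, adjusted 0.835 and 0.754), and 0.388 without the 2 farthest steers. SCD and ACACA gave r = 0.569 (rho = 0.650, permutation p = 0.0339 and 0.0310, adjusted 0.145 and 0.155), 0.400 without the 2 farthest steers and 0.855 on unscaled totals. On those totals control steer 5 held 110.9 CPM of SCD and 74.9 CPM of ACACA, above all other samples of day 131. Its part in the 0.855 was not tested. The inverse relation of day 99 was thus not seen at day 131, and the difference between the days was not tested.

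Since TMM-scaled levels hold the TMM factor itself, that factor was compared with levels on unscaled totals. Over the 11 steers at day 99 the log2 TMM factor correlated with SCD at r = 0.864 (rho = 0.927, permutation p = 0.00013 and 0.00108, adjusted 0.00195 and 0.0117). Its r was -0.510 with FASN (rho = -0.555, permutation p = 0.10001 and 0.0911, adjusted 0.167 and 0.195). It was -0.467 with ACACA (rho = -0.491, permutation p = 0.117 and 0.127, adjusted 0.175 and 0.211). Over all 12 steers these r values were 0.395, -0.495 and -0.436, and without the 2 steers farthest out in each gene 0.912, -0.392 and -0.304. The highest TMM factors of day 99, 1.69 in control steer 3 and 1.37 in restricted steer 5, stayed in all of these values. Their part was not tested. Only SCD over the 11 steers passed the adjusted test. At day 131, over 12 steers, r was 0.858 for SCD (permutation p = 0.0151, adjusted 0.113) and 0.746 for ACACA (permutation p = 0.0398, adjusted 0.145). For FASN it was 0.140 (permutation p = 0.738, adjusted 0.835). Without the 2 steers farthest out in each gene these r values were 0.285, 0.015 and 0.305. On library totals without TMM scaling SCD and FASN correlated at day 99 over the 11 steers at r = -0.765 (unadjusted permutation p = 0.0194). Each run held at most 4 steers of a day, too few for a correlation within runs. The part of library composition, or of the makeup of the biopsies, in these relations was not tested.

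**Figure D3:**
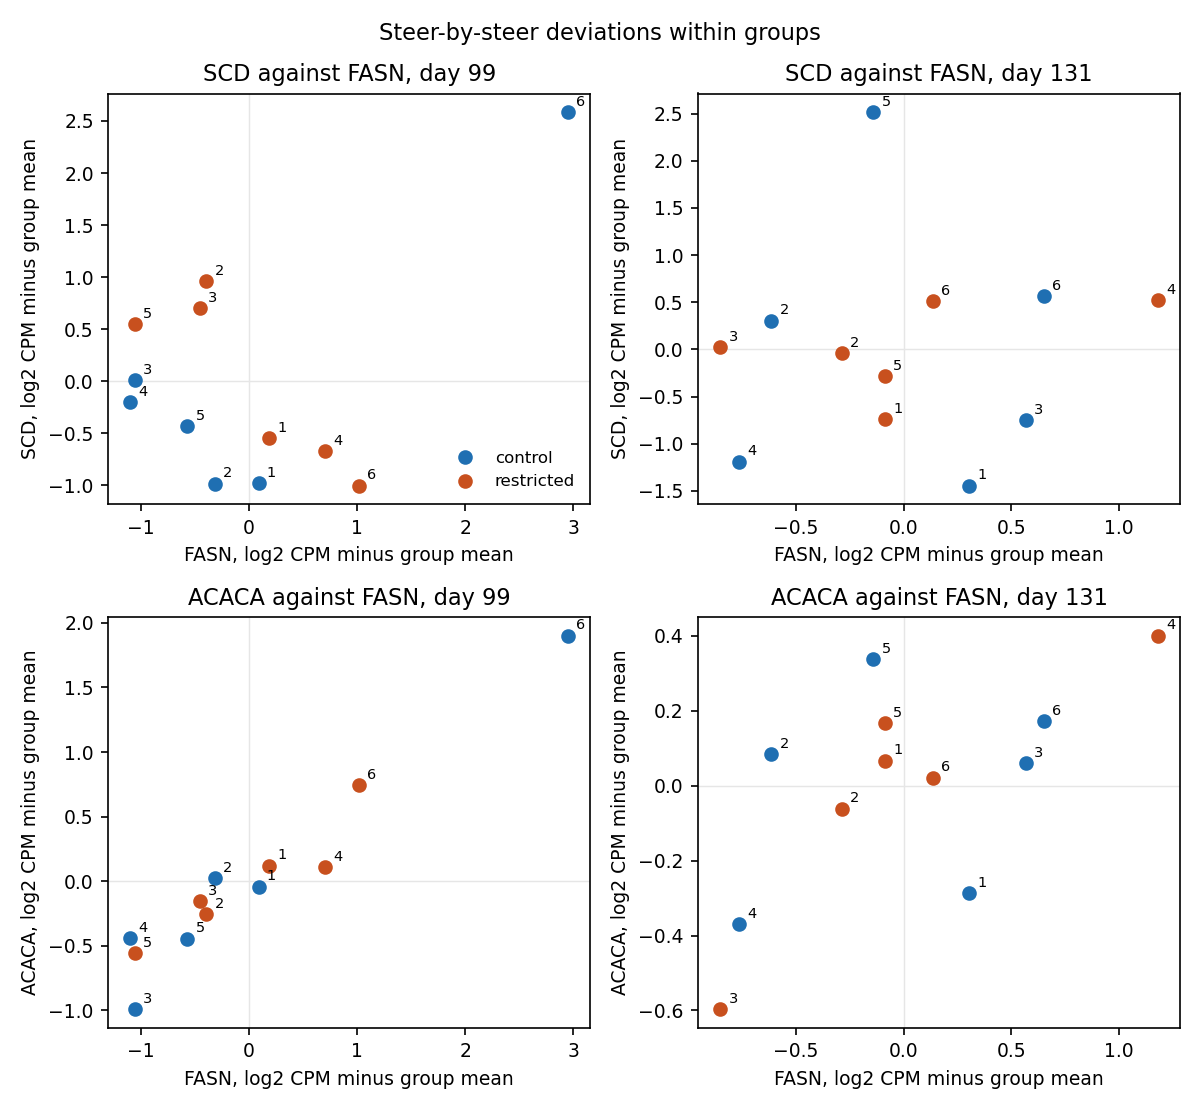
Each point is a steer, placed by its log2 CPM of FASN (x axis) and of SCD (top) or ACACA (bottom), both as deviations from the group mean, at day 99 (left) and day 131 (right), with control steers in blue and restricted steers in orange. At day 99 ACACA follows FASN (r = 0.967), and SCD runs against FASN over the 11 steers other than control steer 6 (r = -0.892), which lies at the upper right.

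The count ratio of FASN to SCD does not depend on library scaling and shows the same values another way, as a description. In restricted steers at day 99 it was 9.87, 11.4 and 8.34 in steers 2, 3 and 5 and 43.3, 68.0 and 107.3 in steers 1, 4 and 6. In restricted steers at day 131 it spanned 17.4 to 50.7. In control steers it was 6.77 to 29.9 at day 99 and 5.17 to 114.75 at day 131, the widest range of the 4 groups. The ratio of FASN to ACACA was narrower, from 3.97 to 8.50 in restricted steers at day 99 and from 7.94 to 16.3 at day 131.

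FASN and ACACA were also close to each other among all genes. Over the 24 samples and 11101 other genes with a mean of at least 1 CPM, FASN was the gene most like ACACA (r of log2 CPM = 0.85, against a median of 0.011 over those genes). ACACA ranked 13 among the genes most like FASN. Without control steer 6 at day 99 their r was 0.701, FASN ranked 10 for ACACA, and ACACA ranked 461 for FASN. SCD ranked 2156 for FASN and 125 for ACACA, and 5000 and 4023 without that sample. These values describe samples that share steers and runs. The gene most like FASN was ENSBTAG00000040490 (r = 0.945, and 0.909 without that sample), and the gene most like SCD was ENSBTAG00000047957 (r = 0.939, and 0.907 without it). Control steer 6 at day 99 held 62.8 and 57.1 CPM of these genes, against medians of 11.4 and 7.32 CPM in the other samples.

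No gene had a relation between the 2 biopsies of a steer that passed the adjusted test. The deviations of day 99 and day 131 correlated at r = 0.522 for FASN (rho = 0.545, permutation p = 0.0738 and 0.0765, adjusted 0.184 and 0.191). They correlated at 0.160 for ACACA (rho = 0.154, permutation p = 0.650 and 0.646, adjusted 0.812 and 0.754) and at 0.089 for SCD (rho = 0.028, permutation p = 0.835 and 0.943, adjusted 0.835 and 0.943). Without the 2 farthest steers r was 0.489, 0.055 and -0.104.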

How the data were processed

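Muscle mRNA of 12 steers was sequenced as paired-end, poly(A)-selected libraries, per the labels' protocols. Each of the 28 deposited tables lists, for 1 library, unnormalized counts by Ensembl gene identifier. Per the submitters' processing notes, the authors used CASAVA 1.4, Bowtie, SAMtools and HTSeq on build UMD 3.1. Strand setting and annotation release are not stated there, so overlapping, antisense or closely related genes could share reads.

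Technical libraries of a steer and day (7 libraries of 3 samples) were summed, and each sum counts as 1 sample. In R 4.3.3, edgeR 4.0.16 removed genes of low counts (filterByExpr, minimum count 10), scaled by TMM and fitted the 4 groups together (robust quasi-likelihood, two-sided, Benjamini-Hochberg over 11288 genes, threshold 0.05). Dividing a log2 fold change by the square root of its F gave the SE. Log2 CPM used a prior count of 2. Exact tests compared mean log2 CPM (924 arrangements) or flipped within-steer changes (64). Correlations used 100000 permutations within diet (numpy 2.4.6, scipy 1.17.1). The run is the run date in the file name, which no other label repeats. The fit was tested on simulated data, drawn without steer pairs, run differences or an outlying library. That test therefore does not bear on these features. P-values of the main fit rest on the spread between samples of a group and treat the 2 biopsies of a steer as independent. Those of the sign-flip test and of the steer block rest on the spread of within-steer changes.

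The same animals were sampled on both days, per the labels, so steer numbers pair the days. Deviations of a steer's samples correlated at a median r of 0.158 over genes, over 0.1 in 8 of 12 steers. The values ran from -0.605 in control steer 3 to 0.520 in control steer 2, so these correlations bear out the pairing unevenly. Alternatives were DESeq2 1.42.0, limma 3.58.1 voom, median-ratio scaling, no filter, run, the steer block, 2-group fits, single technical libraries, leaving out samples with TMM factors over 1.3, 1 surrogate variable (sva 3.50.0) and each sample left out. Those without control steer 6, and those of the correlations, were chosen after seeing the data. Genes named are the 3 members and the genes most like them, held to 2 identifiers without symbols. Gene lists, cell type markers and the correlation with adipocyte markers were planned but not run, since no identifier matched a symbol. The members and lists were chosen with earlier results of these data known.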

Additional observations from a re-analysis of the deposited data

Results flagged for a closer look

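Control steer 6 at day 99 stood apart from the other 5 control samples of that day in each of the 3 genes, with 172.7 CPM of SCD, 3134 CPM of FASN and 215.5 CPM of ACACA. On the log2 scale its gap to the next sample made up 72.3%, 70.7% and 65.0% of the group's range. Of 12 groups of values tested, 3 held a sample that far apart, all 3 from this library. Chance marks about 5% of separate groups. The 12 groups are the 3 genes in the same samples, so the 3 marks are not independent and show no excess over that share.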

How the results depend on the processing

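The directions of the 3 genes at day 99, over the days in restricted steers and in the interaction held in every alternative fit. SCD at day 99 was called by DESeq2 (-2.50, adjusted p = 0.0198) and by no other alternative, whose adjusted p ranged up to 1.00. Leaving out 1 sample at a time gave -2.72 to -1.34 for SCD, -2.18 to -0.50 for FASN and -1.33 to -0.45 for ACACA at day 99. It gave 0.77 to 1.37 for FASN over the days in restricted steers, and 0.63 to 2.75, 0.47 to 2.15 and 0.57 to 1.45 for the interaction of SCD, FASN and ACACA. Control steer 6 at day 99 gave the values nearest 0 at day 99 and in the interaction.

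Directions turned in the other 2 comparisons. In control steers over the days, leaving out 1 sample gave -2.15 to 0.00970 for SCD and -1.02 to 0.66 for FASN. Without control steer 6 on both days the values were 0.0423 and 0.52. With the steer as a block they were -0.83 and 0.48, and the plain difference in mean log2 CPM of SCD was also -0.83. Among the edgeR fits SCD thus turned only in those without the block. At day 131, leaving out 1 sample gave -0.91 to 0.31 for SCD and -0.39 to 0.13 for FASN. There FASN was 0.11 without control steer 6, SCD 0.30 without samples with a TMM factor over 1.3, and ACACA -0.00177 with 1 surrogate variable. Of the differences in mean log2 CPM, unscaled totals gave -0.18 for SCD and -0.0661 for ACACA at day 131 (-0.0726 and -0.0322 without control steer 6). Without control steer 6 FASN stood at 0.44 (unscaled 0.28) over the days in control steers and 0.0840 at day 131. Without that steer SCD correlated at day 99 with FASN at -0.892 (unscaled -0.765) and with ACACA at -0.843 (unscaled -0.690). Between the days the r values were -0.096 for SCD (unscaled -0.052) and -0.014 for ACACA. The cause of these turns was not tested.

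With the steer as a replicate block, FASN in control steers over the days was 0.0208, and 0.48 when control steer 6 was also left out. The interaction was 2.09, 1.09 and 0.96 for SCD, FASN and ACACA, and 1.62, 0.65 and 0.60 without control steer 6, and the block changed no call of the 3 genes. The number of genes called between the days in restricted steers was 43, and 239 with DESeq2, 65 with limma voom, 92 with only those groups, 66 without TMM factors over 1.3, 138 with 1 surrogate variable and 21 to 153 with 1 sample left out. At day 99 it was 0, and 20 with DESeq2, 1 with limma voom, 2 with median-ratio scaling and 32 with 1 surrogate variable. In the shallowest samples SCD rests on few counts, such as 16 in control steer 1 at day 131 (4.29 CPM, 95% counting interval 2.45 to 6.97).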
